A study of Homo sapiens with 6 samples.

Results

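Expression of 10 genes of late squamous differentiation, chosen by symbol, was followed in the esophageal squamous cell carcinoma (ESCC) line KYSE450 and in KEAP1null-KYSE450 cells derived from it. The genes are EMP1, PPL, EVPL, SCEL, MAL, RHCG, CNFN, TGM1, TGM3 and GRHL3. All 10 were found among the 58884 genes of the matrix, each on a single row. KYSE450 cells carry wild-type NRF2. KEAP1null-KYSE450 cells are a single clone made with CRISPR-Cas9 against a coding exon of KEAP1. Both lines were grown in serum-containing medium without treatment. Total RNA was sequenced in 3 libraries per line, and no source used here says that these came from separate cultures, so p-values measure the spread between these libraries. A clone is compared with its parental line, so clonal differences and loss of KEAP1 cannot be told apart.

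In stratified squamous epithelium, cells leave the basal layer, move upward and exchange a proliferative program for a barrier program. Plakins tie keratin filaments and desmosomes to the cell border, transglutaminases crosslink precursors such as sciellin into the cornified envelope, and grainyhead-like factors switch on barrier genes. In the esophagus, which does not form a fully cornified surface, MAL, RHCG, CNFN, EMP1 and TGM3 are known as genes of the upper layers. These transcripts are often low in ESCC.

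EMP1 and SCEL fell in KEAP1null-KYSE450 cells, to levels well under those of any KYSE450 library. The periplakin gene PPL was lower by a smaller margin, short of the log2 fold change of 1 that was required for a call, while its partner EVPL, GRHL3, TGM1 and CNFN were not called. MAL was near the limit of detection in KYSE450 cells and at or below it in KEAP1null-KYSE450 cells. RHCG and TGM3 were listed at 0 in all 6 libraries. No member was called higher.

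The promoters of EMP1 and SCEL, the members that fell, and of CNFN, the member with the highest log2 fold change, are shown in the direction of the gene. They are taken from RefSeq on GRCh38.p14 and reach upstream from the annotated start, without bases that the gencode v44 annotation places in an exon of the same gene. Capitals mark every match to TGACNNNGC or TGANNNNGC, the core of the antioxidant response element to which NRF2 binds, to AACNNGTT, a grainyhead-like core, or to TGANTCA, the AP-1 core, on either strand. TGACNNNGC is contained in TGANNNNGC.
EMP1, chr12:13196476-13196722, plus strand: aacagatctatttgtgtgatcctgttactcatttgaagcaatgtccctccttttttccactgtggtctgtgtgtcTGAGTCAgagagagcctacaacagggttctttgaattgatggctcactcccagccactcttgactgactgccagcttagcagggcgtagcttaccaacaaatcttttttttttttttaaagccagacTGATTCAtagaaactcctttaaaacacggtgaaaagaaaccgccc
SCEL, chr13:77535456-77535673, plus strand: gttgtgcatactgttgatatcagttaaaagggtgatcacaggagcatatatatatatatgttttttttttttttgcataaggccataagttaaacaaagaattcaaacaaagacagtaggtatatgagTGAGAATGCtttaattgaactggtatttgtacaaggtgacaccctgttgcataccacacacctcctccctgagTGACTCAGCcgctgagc
CNFN, chr19:42390298-42390547, minus strand: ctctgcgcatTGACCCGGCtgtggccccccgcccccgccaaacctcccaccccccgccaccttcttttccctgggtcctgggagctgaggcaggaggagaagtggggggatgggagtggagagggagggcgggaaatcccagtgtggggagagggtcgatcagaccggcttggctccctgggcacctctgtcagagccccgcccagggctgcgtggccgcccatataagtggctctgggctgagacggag
The EMP1 window held the AP-1 core at 2 positions, as TGAGTCA from position -175 and as TGATTCA from position -48, counted from the RefSeq start, which for EMP1 and SCEL lies inside the gencode gene. The SCEL window held TGACTCA from position -49. There it is also part of TGACTCAGC, a match to TGACNNNGC, and a further TGANNNNGC match began at position -122. CNFN held TGACCCGGC, which matches TGACNNNGC, from position -240, and no AP-1 core. The search covered the 250 bases before each RefSeq start, and 6 members had an entry, of which GRHL3 had 2 starts. None of those of MAL, TGM3 and GRHL3 held the AP-1 core, and 1 of the GRHL3 windows held TGACNNNGC. Over all 35116 windows, 6.57% held the AP-1 core, 10.9% held TGACNNNGC, 35.2% held TGANNNNGC and 3% held AACNNGTT, which was in no window of the members. PPL, EVPL, RHCG and TGM1 had no entry. A match of letters is not a bound site.

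The 10 genes lie on 10 chromosomes, so no pair of them shares a neighborhood. KEAP1, the edited gene, had 5760, 5226 and 5146 normalized counts in KYSE450 and 5737, 4906 and 5317 in KEAP1null-KYSE450 libraries, so its mRNA level did not mark the edit. The squamous markers KRT5, KRT6A, KRT17, TP63, DSG3, DSC3, S100A2, SFN, CDH1 and PERP were all expressed, with a summed level of 419259 to 534160 in KYSE450 and 604025 to 754466 in KEAP1null-KYSE450 libraries. KRT6A and KRT17, keratins of stressed epithelium, were lower in KEAP1null-KYSE450 cells with log2 fold changes of -4.70 and -4.85, and KRT5 was higher with 1.46. KRT5 made up the largest part of the squamous sum, with means of 208100 in KYSE450 and 568248 in KEAP1null-KYSE450 cells. Of these 10 markers 7 had a negative log2 fold change, 3 were called lower and 1 higher. S100A2, with -2.065, was called lower beside KRT6A and KRT17. After quantile normalization KRT5 was not called. The 10 markers of immune, endothelial, stromal, muscle and neuroendocrine cells summed to 698 to 888 in KYSE450 and 377 to 526 in KEAP1null-KYSE450 libraries, mostly from COL1A1. Of 3 tested 1 was called lower, CDH5, an endothelial cadherin. Without KYSE450 library 2 or without KYSE450 library 3 its mean was under the filter of 10, so it was not tested there. Without COL1A1 the sums were 49.2 to 91.4 and 44.3 to 94.8, and PECAM1 was at 0 throughout. The part of these markers in the results was not tested. Normalized counts are read counts divided by 1 factor per library, and the libraries summed to between 54829313 and 57380170 of them. A level equal to 3 reads, between 2.77 and 3.21 normalized counts, was taken as the floor of detection, which covers counting error only. In bulk RNA, fewer cells of a type and less RNA per cell cannot be told apart.

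**Figure D1:**
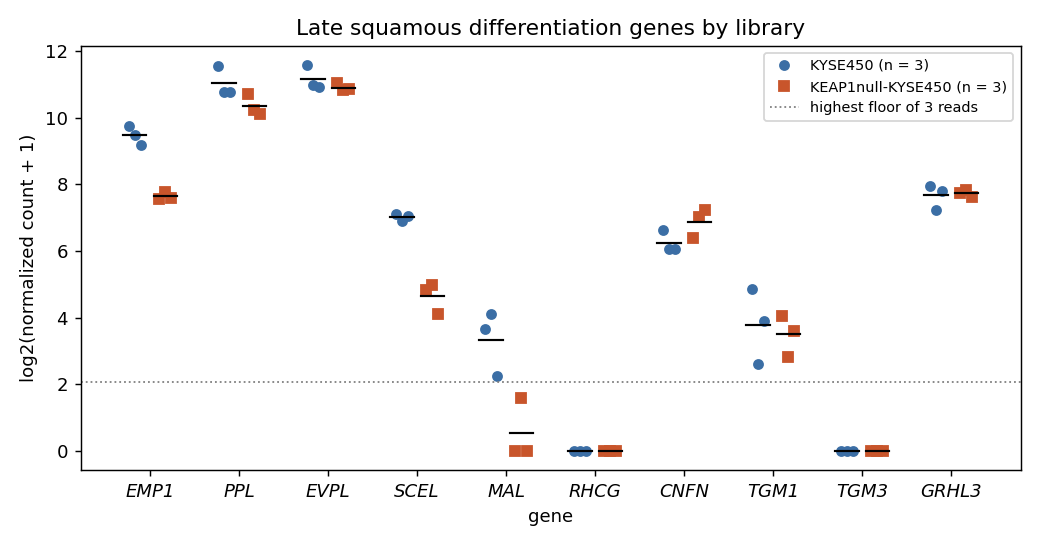
Log2(normalized count + 1) of each member in the 3 KYSE450 (circles) and 3 KEAP1null-KYSE450 (squares) libraries, with a bar at the mean of the log2 values in each line and a dotted line at the highest floor of 3 reads. EMP1, SCEL, PPL and MAL show no overlap between the lines, and RHCG and TGM3 sit at 0.

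Differences were tested with limma on log2(normalized count + 1) with Benjamini-Hochberg adjustment, across the 16701 genes whose mean reached 10. A call needed an adjusted p under 0.05 together with a log2 fold change of 1 or more in either direction. Of the 10 members, 7 passed the filter on low counts, and the same 7 had a mean of at least 10 in KEAP1null-KYSE450 libraries alone. In this fit 2 members were called lower and 0 higher. Among all genes tested, 5.98% were called lower and 12.2% higher. The 2 lower members are 2 of 7 tested, and the median log2 fold change of the 7 was -0.29 against 0.004 for all genes tested. The lines did not overlap for 3 tested members, EMP1, SCEL and PPL, all lower, where 29.3% of all genes tested did not overlap and were lower and 28.4% were higher. At an unadjusted p under 0.05 and with no fold cutoff, 3 members were lower and 1 was higher. The share of all genes tested at that unadjusted p was not computed, so this count has no background beside it. At an adjusted p under 0.05 the share was 25.5% lower and 24.3% higher. With edgeR and DESeq2 on 4 libraries 0 members were called higher.

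EMP1 encodes epithelial membrane protein 1, a 4-pass membrane protein of the PMP22 family, and is on chromosome 12, plus strand, from 13196723 to 13219941 in hg38. It had 861, 716 and 581 normalized counts in KYSE450 and 188, 220 and 191 in KEAP1null-KYSE450 libraries. The highest KEAP1null-KYSE450 library was well below the lowest KYSE450 library. With means of 719 ± 140 and 200 ± 17.8 (SD, n = 3 per line), EMP1 fell by 1.83 on the log2 scale (SE 0.17, limma adjusted p = 2.4e-06). Under 19 other settings it lay between -1.97 and -1.65 and was called in each. Of the 4 genes of this family, all tested, EMP1 was the one called lower and EMP3 the one called higher. EMP3 rose by 1.46 on the log2 scale, with means of 49.9 ± 10.2 in KYSE450 and 138 ± 15.5 in KEAP1null-KYSE450 cells (SD, n = 3 per line). EMP2 had a log2 fold change of 0.58 and PMP22 of 0.15, and neither was called. Counts of EMP1 per count of EMP2 were 0.157, 0.142 and 0.125 in KYSE450 and 0.0217, 0.0307 and 0.0275 in KEAP1null-KYSE450 libraries. This ratio does not depend on the scaling of a library. EMP2 itself was above every KYSE450 library in each KEAP1null-KYSE450 library (limma adjusted p = 0.00074), so the ratio reflects both genes and not EMP1 alone.

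SCEL encodes sciellin, a precursor of the cornified envelope, and is on chromosome 13, plus strand, from 77535674 to 77645263. KYSE450 libraries held 138, 118 and 131 normalized counts and KEAP1null-KYSE450 libraries 27.7, 30.6 and 16.1. The 3 KYSE450 values were close together and all lay above every KEAP1null-KYSE450 value. With means of 129 ± 9.95 and 24.8 ± 7.64 (SD, n = 3 per line), SCEL fell by 2.38 on the log2 scale (SE 0.30, limma adjusted p = 4.2e-05). It lay between -2.82 and -2.02 in the 18 other settings that tested it and was called in each. The filter at a mean of 100 left it out. SCEL-AS1, a noncoding gene on the opposite strand that shares 3.42% of the exonic bases of SCEL, was listed at 0 in every library. A second opposite-strand gene shares 1.93% and was not analysed here. The library kit is not stated to mark strand.

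The plakins PPL and EVPL, periplakin and envoplakin, form a scaffold under the plasma membrane on which the envelope is built. PPL, on chromosome 16, minus strand, from 4882507 to 4960741, had 3026, 1757 and 1742 normalized counts in KYSE450 and 1691, 1208 and 1101 in KEAP1null-KYSE450 libraries. The lines did not overlap, but only a narrow gap separated the lowest KYSE450 library from the highest KEAP1null-KYSE450 library. On the log2 scale PPL differed by -0.68 (SE 0.21, 95% interval -1.12 to -0.24, limma adjusted p = 0.015), so it was lower at the adjusted p but not called. Leaving out KEAP1null-KYSE450 library 2 or 3 raised the limma adjusted p to 0.059 and 0.075, limma without a trend on the mean level gave 0.096, and without KYSE450 library 1 the log2 fold change was -0.42. Among all genes tested, 25.5% were lower and 24.3% higher at an adjusted p under 0.05.

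EVPL, on chromosome 17, minus strand, from 76004502 to 76027306, had 3062, 2009 and 1956 normalized counts in KYSE450 and 2099, 1823 and 1863 in KEAP1null-KYSE450 libraries. These ranges overlapped. The difference of -0.25 on the log2 scale (SE 0.15, limma adjusted p = 0.19) has a 95% interval of -0.58 to 0.080, so a fall to the size seen for SCEL or EMP1 lies outside it. Without KYSE450 library 1 the difference was -0.043. Counts of PPL per count of EVPL were 0.988, 0.874 and 0.890 in KYSE450 and 0.806, 0.663 and 0.591 in KEAP1null-KYSE450 libraries. The ratio was lower in every KEAP1null-KYSE450 library. Like the other ratios between genes given here, it was chosen after the values were seen and was not tested.

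Among the 7 plakins, PPL and EVPL included, 2 were called lower, with a median log2 fold change of -0.62. Desmoplakin, DSP, which joins keratin filaments to desmosomes, fell by 1.69 on the log2 scale, from a mean of 36624 ± 11260 in KYSE450 to 11111 ± 1993 in KEAP1null-KYSE450 cells (SD, n = 3 per line). EPPK1, epiplakin, fell by 4.87 on the same scale, with means of 601 ± 178 and 22.8 ± 13.7 (SD, n = 3 per line). The crosslinkers PLEC, MACF1 and DST were not called and had log2 fold changes of -0.050, -0.62 and 0.69. MACF1 was lower and DST higher at the adjusted p (limma adjusted p = 0.0059 and 0.0007), with no overlap between the lines. Like PPL, they missed the call on fold change only. PLEC changed sign after quantile normalization and without KYSE450 library 1.

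**Figure D2:**
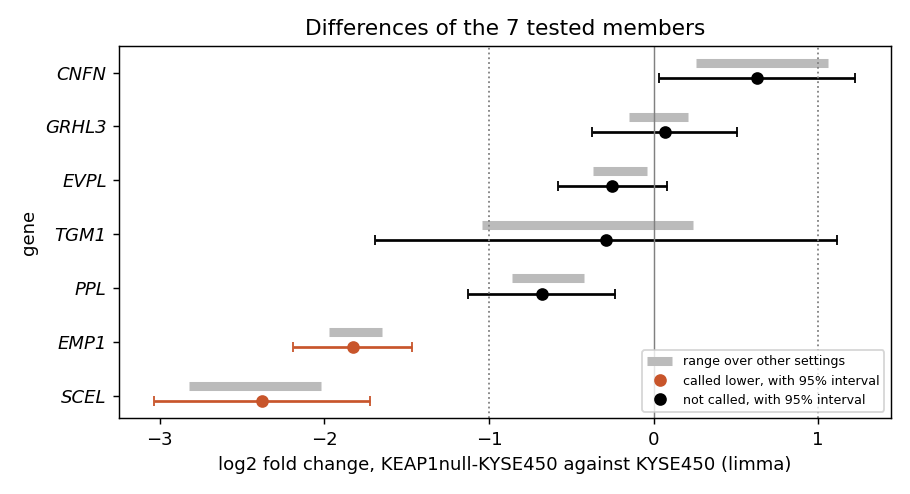
Log2 fold change of KEAP1null-KYSE450 against KYSE450 for the 7 tested members, with the 95% interval from limma (points and bars) and the range over the other settings (grey bands). EMP1 and SCEL lie beyond the dotted line at -1 in full, and the interval of TGM1 spans from -1.69 to 1.12.

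KYSE450 library 1 held the highest KYSE450 value of all 7 tested members, whereas it was the highest of the 3 for 43.5% of all genes tested. In KEAP1null-KYSE450 cells the 7 highest values were spread as 3, 3 and 1 over the libraries. Library 1 of each line also differed from the others with transcript length. Among the 6172 tested genes with at least 6000 exonic bases, the median log2 difference of library 1 from the other libraries was 0.130 in KYSE450 and 0.103 in KEAP1null-KYSE450 cells, and among the 3014 genes under 2000 bases it was -0.124 and -0.142. EMP1, PPL and EVPL have 7833, 7699 and 7364 exonic bases. GRHL3, SCEL, TGM1 and CNFN have 4266, 4205, 3735 and 613. CNFN, among the genes under 2000 bases, was thus also highest in KYSE450 library 1. After this was seen, 2 settings were added. Leaving out library 1 removes all that is particular to it, so that setting does not isolate length. With the trend on length removed, 2 members were called lower and 0 higher. Without library 1 of both lines, 2 were called lower and 1, CNFN, was called higher.

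**Figure D3:**
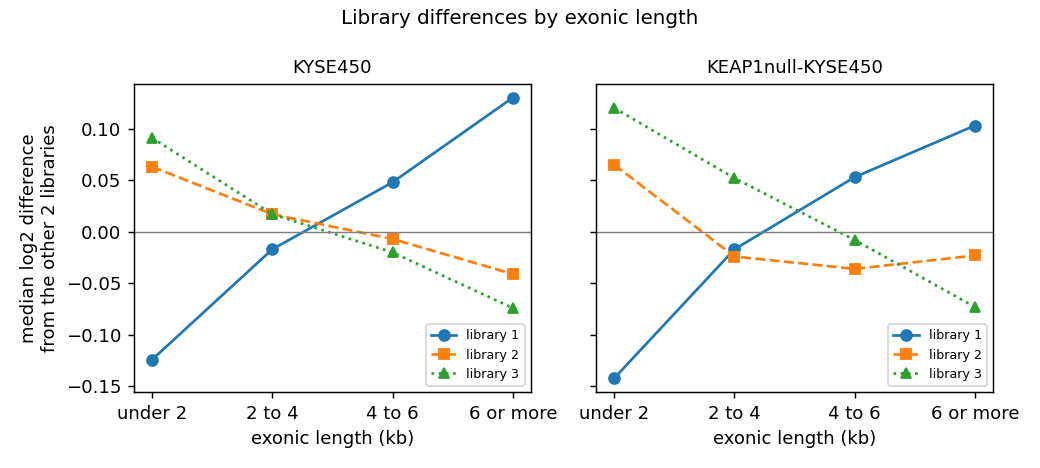
Median log2 difference of each library from the other libraries of its line, for tested genes grouped by exonic length in kb, in KYSE450 (left) and KEAP1null-KYSE450 cells (right). Library 1 of each line rises with length, from -0.124 to 0.130 and from -0.142 to 0.103, while library 3 of each line falls.

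CNFN encodes cornifelin, a small envelope protein, and maps to chromosome 19, minus strand, from 42387019 to 42390297. It had 98.4, 65.7 and 66.2 normalized counts in KYSE450 and 83.0, 129 and 149 in KEAP1null-KYSE450 libraries. Library 1 was the highest of KYSE450 and the lowest of KEAP1null-KYSE450, and through it the lines overlapped. CNFN differed by 0.63 on the log2 scale (SE 0.28, 95% interval 0.032 to 1.23, limma adjusted p = 0.075) and was not called. Without library 1 of both lines the difference was 1.06 (limma adjusted p = 0.0045), past the threshold. With the length trend removed it was 0.31, after quantile normalization 0.26, and with edgeR on the 4 libraries with recovered reads 0.41.

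MAL encodes a proteolipid of apical membrane transport and is on chromosome 2, plus strand, from 95025677 to 95053992. KYSE450 libraries held 11.8, 16.2 and 3.73 normalized counts, and KEAP1null-KYSE450 libraries 0, 2.04 and 0. All KEAP1null-KYSE450 libraries were at or below the floor and KYSE450 library 3 was close to it. Its mean of 5.62 left it out of the test. The KYSE450 mean of MAL was 3.58 times the mean floor of 3 reads in KEAP1null-KYSE450 libraries. The spread of the KYSE450 values is not allowed for in this ratio, so it is not a lower bound. Without a filter on low counts, MAL was called lower (-2.80 on the log2 scale, SE 0.74, limma adjusted p = 0.01 over 28799 genes), a fitted value that depends on the pseudocount. Of the other genes of the MAL family, all 3 tested, 1 was called in each direction. MALL fell by 1.21 on the log2 scale, with means of 144 ± 31.0 and 61.0 ± 4.08 (SD, n = 3 per line), and with edgeR on 4 libraries it was at -0.98 and not called. PLLP, plasmolipin, rose by 1.11, with means of 75.8 ± 24.6 and 164 ± 43.8 (SD, n = 3 per line). It was not called without KYSE450 library 1 (0.965), without KEAP1null-KYSE450 library 1 (0.92) or after quantile normalization (0.77). MAL2, the abundant member with 11610 ± 1160 normalized counts in KYSE450 cells (SD, n = 3), had a log2 fold change of 0.16 and was not called.

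RHCG encodes an ammonia transporter and maps to chromosome 15, minus strand, from 89471398 to 89496589. It was listed at 0 in each of the 6 libraries, which allows up to 3 reads per library, or 3.21 normalized counts. RHAG and RHD of the same family were also at 0, RHBG reached at most 7.14 normalized counts, and RHCE reached at most 8.09 in KYSE450 and lay between 10.1 and 12.0 in KEAP1null-KYSE450 libraries. None of the 5 genes of the family passed the filter.

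The transglutaminases form the bonds of the envelope. TGM1, the membrane-bound enzyme, is on chromosome 14, minus strand, from 24249114 to 24264432. It had 27.8, 5.05 and 14.0 normalized counts in KYSE450 and 15.7, 6.12 and 11.1 in KEAP1null-KYSE450 libraries. The lines overlapped over most of their range. TGM1 differed by -0.29 on the log2 scale, with a 95% interval of -1.69 to 1.12 (SE 0.65, limma adjusted p = 0.73), so at this level neither a fall nor a rise past the threshold could be told from no change. The sign turned without KYSE450 library 1 (0.24) and without KEAP1null-KYSE450 library 2 (0.045). TGM3, the enzyme of the suprabasal cytosol, is on chromosome 20, plus strand, from 2296001 to 2341079 and was listed at 0 in all 6 libraries. A second annotated gene on the same strand, ENSG00000286022, shares 94.8% of the exonic bases of TGM3 and was also listed at 0. Whether reads that fit both genes were counted is not given in the sources used here, so the 0 of TGM3 cannot be read as absence. Of the other genes of this family, TGM2, TGM5, TGM6, TGM7 and F13A1 were at or below the floor in both lines. TGM4, a prostate enzyme by background, was at 35.3, 51.6 and 28.0 in KYSE450 libraries and at 0 in KEAP1null-KYSE450 libraries. TGM4 was called lower. Its KYSE450 mean was 13 times the mean floor of 3 reads in KEAP1null-KYSE450 libraries, a ratio that leaves out the spread of the values.

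Of 7 genes for cathepsins and other proteases and protease inhibitors tied to envelope crosslinking, 6 were tested, with a median log2 fold change of -0.28, and 1 was called lower. CTSV, cathepsin V, fell by 1.55 on the log2 scale, with means of 2404 ± 115 and 830 ± 160 (SD, n = 3 per line). CSTA, cystatin A, an inhibitor of cysteine proteases and an envelope component, had a log2 fold change of 0.64. It was higher at the adjusted p (limma adjusted p = 0.00076) with no overlap between the lines, but was not called. CTSL, CTSD, LGMN and SPINK5 had log2 fold changes of -0.20, -0.37, -0.57 and -0.12 and were not called. Of these, LGMN was lower at the adjusted p (limma adjusted p = 0.0048). CST6 was at 3.73 normalized counts in KYSE450 library 3 and at 0 in the other libraries.

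GRHL3, a transcription factor of barrier genes including TGM1, is on chromosome 1, plus strand, from 24199558 to 24364482. It had 247, 151 and 224 normalized counts in KYSE450 and 213, 229 and 196 in KEAP1null-KYSE450 libraries. The KEAP1null-KYSE450 values lay inside the KYSE450 range. GRHL3 differed by 0.066 on the log2 scale (SE 0.20, limma adjusted p = 0.81), with a 95% interval of -0.37 to 0.51 that holds no change past the threshold. STPG1, on the opposite strand across GRHL3 but with no shared exon, had a log2 fold change of -0.65. Of the 6 grainyhead-like genes, all tested, 2 were called lower. GRHL1 fell by 1.42 on the log2 scale, with means of 549 ± 77.6 and 203 ± 5.63 (SD, n = 3 per line). TFCP2L1 fell by 1.61, with means of 489 ± 97.9 and 161 ± 43.7 (SD, n = 3 per line). GRHL2, TFCP2 and UBP1 had log2 fold changes of 0.062, -0.059 and -0.0013 and were not called, and the signs of TFCP2 and UBP1 flipped after quantile normalization, as did that of GRHL3. Counts of GRHL3 per count of GRHL1 were 0.401, 0.265 and 0.482 in KYSE450 and 1.05, 1.10 and 0.990 in KEAP1null-KYSE450 libraries.

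**Figure D4:**
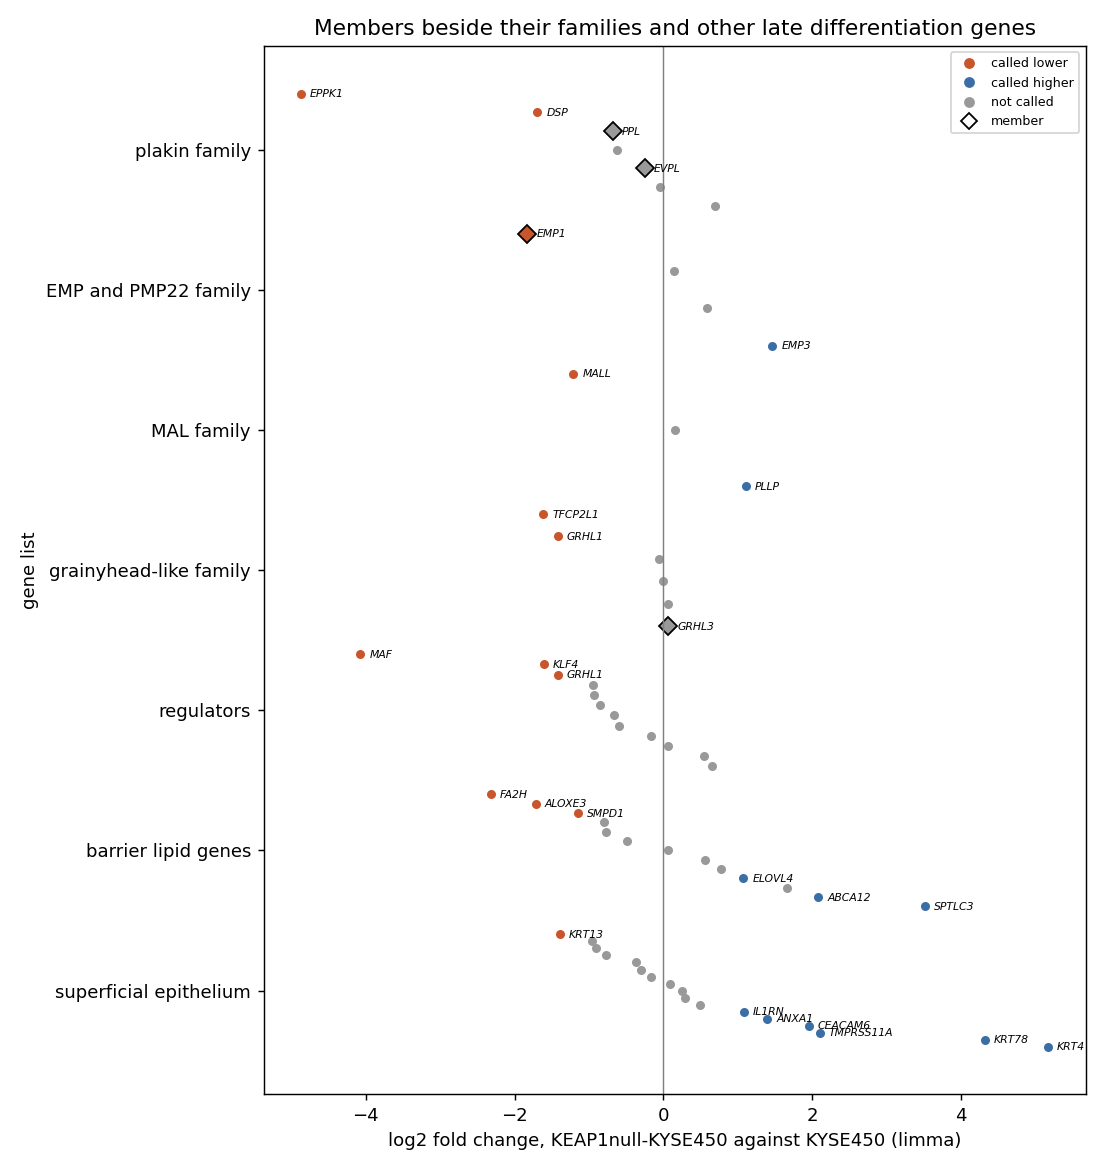
Log2 fold change of every tested gene in 7 lists, with members as diamonds, genes called lower in orange, genes called higher in blue and genes not called in grey. EMP1 at -1.83 and EMP3 at 1.46 stand on opposite sides of 0, and EPPK1 at -4.87 is the lowest plakin.

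Compared per length, the members differed widely in level within KYSE450 cells, in normalized counts per kb of annotated exon. EVPL was at 318 ± 84.7 and PPL at 282 ± 95.7, and their ranges overlapped. CNFN at 125 ± 30.6 and EMP1 at 91.8 ± 17.9 also overlapped. GRHL3 at 48.6 ± 11.8 and SCEL at 30.7 ± 2.37 were each separate from their neighbors in this order. MAL at 7.26 ± 4.34 and TGM1 at 4.18 ± 3.07 overlapped at the bottom (SD, n = 3 for each value). In KEAP1null-KYSE450 cells the order was EVPL (262 ± 20.3), CNFN (197 ± 55.5), PPL (173 ± 40.9), GRHL3 (49.9 ± 3.95), EMP1 (25.5 ± 2.27), SCEL (5.90 ± 1.82), TGM1 (2.94 ± 1.28) and MAL (0.468 ± 0.810), in normalized counts per kb (SD, n = 3 each). There CNFN and PPL overlapped, as did SCEL and TGM1, and EMP1 had moved below GRHL3. The length is the union of all gencode v44 exons of a gene, so a gene that uses few of them is understated.

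Members were then set beside their neighbors on the chromosome, the 10 nearest tested genes on each side. The 20 neighbors of EMP1, spanning 2.66 Mb, had a median log2 fold change of 0.54, and 3 of them were called higher and 1 lower. Around SCEL the 20 neighbors spanned 14.1 Mb, with a median of -0.15 and 2 called in each direction. SLAIN1, the next tested gene after SCEL, was among those lower, with a log2 fold change of -1.39. The medians around the other 8 members lay between -0.32 for EVPL and 0.30 for MAL. CNFN was above its neighbors, whose median was -0.25.

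**Figure D5:**
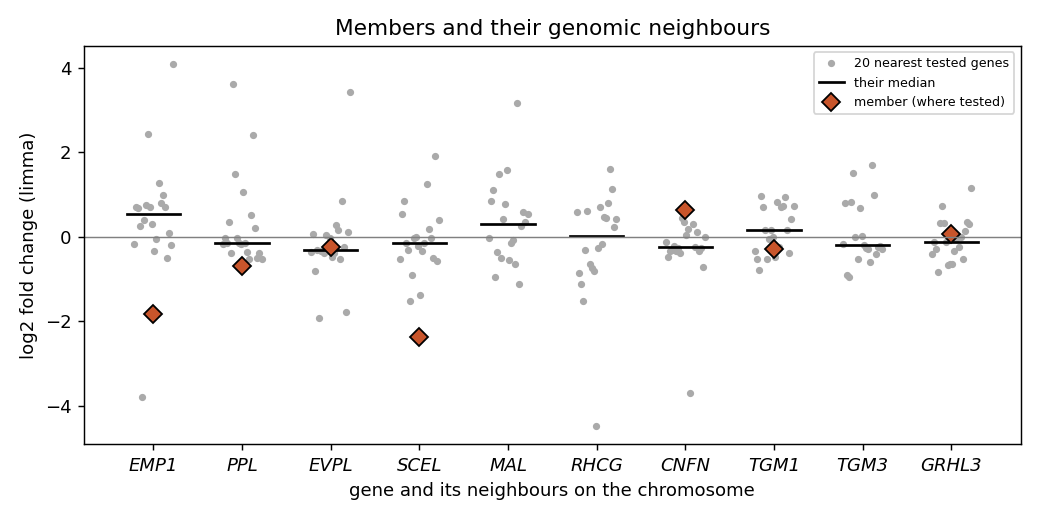
Log2 fold change of the 10 nearest tested genes on each side of each member (grey), their median (bar) and the member itself where it was tested (diamond). EMP1 and SCEL lie below the bars of their neighbors, at 0.54 and -0.15, and EVPL lies near its bar at -0.32.

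Among 12 transcriptional regulators of late differentiation, all tested, 3 were called lower, with a median log2 fold change of -0.76. The count was 6 without KYSE450 library 3 and 5 after quantile normalization. KLF4, a factor of barrier formation, fell by 1.60 on the log2 scale, with means of 2531 ± 244 and 834 ± 113 (SD, n = 3 per line). GRHL1, given above, and MAF were the others called lower. MAF, a factor of epidermal differentiation, had 43.9, 43.5 and 33.6 in KYSE450 and 1.85, 4.08 and 0 in KEAP1null-KYSE450 libraries, with -4.07 as the fitted difference and -5.42 to -2.08 as its span over the other settings.

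Genes of barrier lipids were divided as well. Of 18, 13 were tested, and 3 were called in each direction, with a median log2 fold change of 0.06. SPTLC3, a subunit of the enzyme that starts sphingolipid synthesis, rose by 3.51 on the log2 scale, with means of 33.6 ± 17.9 and 353 ± 21.8 (SD, n = 3 per line). ABCA12, the lipid transporter of lamellar granules, rose by 2.08, and ELOVL4, which makes very long fatty acids, had means of 343 ± 7.51 and 724 ± 55.5 (SD, n = 3 per line) and was called higher. Without library 1 of both lines ELOVL4 was at 0.995 and not called. FA2H, fatty acid 2-hydroxylase, fell by 2.32, with means of 616 ± 182 and 123 ± 35.9 (SD, n = 3 per line), and ALOXE3 and SMPD1 had log2 fold changes of -1.71 and -1.15. Without KYSE450 library 1 SMPD1 was at -0.996 and just short of the call.

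Of 29 genes known from the upper layers of the esophagus, 17 were tested, and 6 were called higher and 1 lower, with a median log2 fold change of 0.25. The weakest of the 6 calls had a limma adjusted p of 0.048, and its lines overlapped. After quantile normalization 5 were called higher and 4 lower, and without KEAP1null-KYSE450 library 1 the counts were 5 and 2. With a pseudocount of 0.1 or 10, no filter, no trend, edgeR or DESeq2, 5 were called higher and 1 lower. A further 9 were at or below the floor in both lines, and 7 of these, CRNN, SLURP1, TMPRSS11B, ENDOU, SPINK7, PSCA and CEACAM7, were at 0 in all 6 libraries. KRT4, a keratin of the mucosal suprabasal layers, had a log2 fold change of 5.17, whereas its partner KRT13 fell by 1.40, with means of 128788 ± 23121 and 48425 ± 2372 (SD, n = 3 per line). KRT78 was at or below the floor in all KYSE450 libraries and was called higher. Its KEAP1null-KYSE450 mean was 10.3 times the mean KYSE450 floor, a ratio that leaves out the spread of the values. TMPRSS11A, a membrane protease, and CEACAM6, an adhesion molecule, had log2 fold changes of 2.10 and 1.95 and were called higher.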

How the data were processed

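The authors extracted total RNA, prepared libraries with the NEBNext Ultra kit and aligned quality-filtered reads to hg38 with STAR (version 2.6.90c). Reads per gene were obtained with featureCounts (version 1.5.1), and the submitters' processing notes also name FastQC 0.11.5 and cutadapt 1.12. The deposited values are normalized counts, treated as a signal that is never negative. Each is a whole multiple of the smallest value above 0 in its library. With a tolerance of 0.01 reads, 100% of the values above 0 were whole in every library. Reads were accepted as recovered for KYSE450 libraries 1 and 3 and KEAP1null-KYSE450 libraries 1 and 2 (53027359 to 61543442 reads). They were not accepted for the other 2, where that smallest value was 1.01 normalized counts. The floor of 3 reads in these 2 libraries takes that value as 1 read, which was not established. Columns carry no replicate number, so libraries were numbered by order within each line. Of 16701 identifiers tested, 16630 were in gencode v44.

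limma (version 3.58.1, R 4.3.3; eBayes with trend) was applied to log2(normalized count + 1) across genes whose mean reached 10, with Benjamini-Hochberg adjustment, two-sided. edgeR (4.0.16, quasi-likelihood, TMM) and DESeq2 (1.42.0) were run on the recovered reads over the same genes. The fits were tested on simulated data. Recovered reads of KYSE450 libraries 1 and 3 and of KEAP1null-KYSE450 libraries 1 and 2 differed far beyond sampling noise (chi-square per degree of freedom 84.3 and 41.9), and the other pairs were not compared in this way. Pearson's r across genes, which are not independent replicates, was 0.984 to 0.989 within and 0.924 to 0.936 between the lines.

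The members and lists were chosen with earlier results of these data known. Named genes were the members, KEAP1, every gene of a list of up to 8, and up to 4 called genes in each direction of longer lists, with the defining cell type markers. SLAIN1, STPG1 and the esophageal genes at 0 were named after their values were seen. NFE2L2, also in the rule, had a log2 fold change of -0.47, was lower at the adjusted p (limma adjusted p = 0.00063) and was not called. A gene of the regulator list is not reported here.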

Additional observations from a re-analysis of the deposited data

How the results depend on the processing

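EMP1 and SCEL were called lower under every setting that tested them, 19 for EMP1 and 18 for SCEL. With a mean of at least 100, where SCEL is left out, 1 member was called lower. Without library 1 of both lines, chosen after the data were seen, 1 member was called higher (CNFN) where the main fit had 0. Over all genes, 2045 were called higher and 999 lower. A mean of at least 100 gave 875 higher, no fold change cutoff 4060 higher and 4251 lower, and a test against a fold change of 2 gave 626 higher and 395 lower. Of the genes named here, the last setting ended the calls of EMP3, MALL, PLLP, GRHL1, TFCP2L1, ALOXE3, SMPD1, ELOVL4, TMPRSS11A, KRT13, KRT5 and CDH5. These settings test fewer genes or move the cutoff by construction. After quantile normalization 51.8% of the calls were higher, against 67.2%. edgeR and DESeq2 called 2698 and 2500 genes against 3044. Leaving out each library gave 1708 to 2057 genes higher and 860 to 1106 lower, with 2 members lower and 0 higher each time. No paired analysis was possible because the columns carry no replicate number.

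Signs changed for 7 of 45 named genes tested, none of them called in the main fit, and the cause was not tested. The 45 leave out the squamous markers, the markers of other cell types, SLAIN1 and STPG1, whose signs were not followed. After quantile normalization GRHL3 was at -0.145, KEAP1 at 0.135, PLEC at 0.148, TFCP2 at 0.095 and UBP1 at 0.161. With equal totals KEAP1 was at 0.016 and UBP1 at 0.031. With edgeR GRHL3 was at -0.054, SPINK5 at 0.015, TFCP2 at 0.009 and UBP1 at 0.010, and with DESeq2 GRHL3 was at -0.084. With the length trend removed KEAP1 was at 0.007 and UBP1 at 0.051, and without library 1 of both lines PLEC was at 0.173. With 1 library left out, the differences spanned -0.881 to 0.244 for TGM1, -0.147 to 0.209 for GRHL3, -0.072 to 0.040 for KEAP1, -0.184 to 0.206 for PLEC, -0.340 to 0.058 for SPINK5, -0.158 to 0.007 for TFCP2 and -0.054 to 0.049 for UBP1. MAL in KEAP1null-KYSE450 cells and RHCG in both lines were at or below the floor, where no level could be given at this depth.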
